A study of Mus musculus with 105 samples.

Results

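Newly made miRNAs were compared with standing miRNAs in contact-inhibited mouse embryonic fibroblasts (CIMEF), which are fibroblasts grown until crowding stops their division. A library called EU here holds small RNA that had taken up 5-ethynyluridine, a uridine analogue that cells build into new RNA and through which that RNA can be coupled to a tag and captured. The input library of the same cells holds the small RNA before the pulldown. All CIMEF libraries of 2, 4 and 8 h of labelling were taken, which are 12 of the 105 samples of the series: 6 EU and 6 input libraries from 2 labelling courses. Each EU library was compared with the input library of its own course and time, so there were 6 pairs. The tables listed 1013 miRNAs, of which 815 had a count in these 12 libraries and 439 had enough counts for a test.

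The CIMEF were C57BL/6J cells at passages labelled 5 to 15, held contact-inhibited for 5 days and then given 400 µM 5-ethynyluridine. Another 3 sets of pairs at the same times were used beside them: dividing fibroblasts of the same strain and dose (DMEF), embryonic stem cells (ESC) at 125 µM, and 1 course of contact-inhibited fibroblasts labelled CyrKO, in which the long noncoding RNA Cyrano is knocked out. Every library compared, input included, came from cells that had received the analogue. The labels do not say whether the courses came from separate embryos, so p-values measure the spread between these libraries only.

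A miRNA is cut from a hairpin precursor as a duplex of 2 strands. One strand, the guide, is loaded into an Argonaute protein and can persist for days, while the other, the passenger, is discarded soon after loading. Guides recognise target messenger RNAs mainly through the seed, bases 2 to 8. Only uridines can carry the label, so a miRNA with few of them offers few positions for capture.

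The sequences of the miRNAs that mark the ends of the comparison follow, from RefSeq (GRCm38.p6), with the seed in capitals. The first set holds passenger strands with a far larger share in EU than in input libraries, each followed by its guide where the 2 are discussed together. MiR-26a-2-3p and miR-26b-3p share a seed, and the seed of miR-26a-1-3p differs from it. On that build miR-26a-2-3p lies at chr10:126995581-126995602 (+ strand), miR-27a-5p at chr8:84208685-84208706 (+ strand) and miR-335-3p at chr6:30741354-30741375 (+ strand).
miR-26a-2-3p: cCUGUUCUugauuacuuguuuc
miR-26b-3p: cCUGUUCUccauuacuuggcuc
miR-26a-1-3p: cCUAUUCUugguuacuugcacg
miR-26a-5p: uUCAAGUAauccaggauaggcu
miR-27a-5p: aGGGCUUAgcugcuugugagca
miR-27a-3p: uUCACAGUggcuaaguuccgc
miR-16-1-3p: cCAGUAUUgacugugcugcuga
miR-16-5p: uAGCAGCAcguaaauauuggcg
miR-335-3p: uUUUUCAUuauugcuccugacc
miR-335-5p: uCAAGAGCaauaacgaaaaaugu

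The second set holds guides with a larger share in EU libraries. MiR-322-5p has the seed of miR-16-5p above, and the seed of miR-503-5p is a different one. On GRCm38.p6, miR-322-5p lies at chrX:53054306-53054327 (- strand) and miR-503-5p at chrX:53054027-53054049 (- strand).
miR-7a-5p: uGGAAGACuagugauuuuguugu
miR-503-5p: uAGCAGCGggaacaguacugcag
miR-322-5p: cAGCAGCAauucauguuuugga

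The third set holds miRNAs with a far smaller share in EU libraries. The first 4 have 0 to 3 uridines, miR-125b-5p and miR-125a-5p have 6 and 7, and miR-3068-5p and miR-664-3p have 8 each. MiR-125a-5p and miR-125b-5p share a seed. On GRCm38.p6, miR-483-5p lies at chr7:142654968-142654989 (- strand) and miR-214-3p at chr1:162223438-162223459 (+ strand).
miR-483-5p: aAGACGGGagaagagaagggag
miR-214-3p: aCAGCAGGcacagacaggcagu
miR-574-3p: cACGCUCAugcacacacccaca
miR-3102-3p: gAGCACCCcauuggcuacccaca
miR-125b-5p: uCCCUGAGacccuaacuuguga
miR-125a-5p: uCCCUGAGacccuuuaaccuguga
miR-3068-5p: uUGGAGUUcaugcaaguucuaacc
miR-664-3p: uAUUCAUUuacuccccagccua

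Levels are given as CPM, the counts of a miRNA per 1000000 miRNA counts of its library, so each level is a share and a gain of one miRNA lowers the shares of the others. EU libraries held 131291 to 326405 miRNA counts in course 1 and 426426 to 838494 in course 2, and input libraries 3563776 to 7419128. A count of 0 allows up to 3 counts, which is 3.58 to 22.9 CPM in EU and 0.404 to 0.842 CPM in input libraries, for counting error only. Of fibroblast miRNAs, the miR-199/214 list summed to between 40630 and 49580 CPM, and the miR-290-295 and miR-302 list of stem cells to between 0.485 and 1.82 CPM, with 9 of its 24 members counted at all. Of the markers of other cell types, the epithelial miR-200 list summed to between 4.21 and 10.8 CPM in input libraries, the blood list to between 12.9 and 40.1 CPM with 8 of 10 members counted, the muscle list to between 85.5 and 170.9 CPM, the endothelial and liver list to between 116 and 235 CPM and the neural list to between 432 and 1181 CPM. The defining markers miR-302a-3p of stem cells and miR-142a-3p of blood had no count.

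The 2 courses differed in 1 block of miRNAs before any labelled RNA is considered. The Dlk1-Dio3 cluster is a large group of miRNAs from an imprinted region that is read from the maternal chromosome. It summed to between 13080 and 14060 CPM in the inputs of course 1 and to between 125 and 149 CPM in those of course 2. Of 61 tested miRNAs with an input share over 10-fold higher in course 1, 60 belonged to this cluster, and 0 tested miRNAs were over 10-fold lower. New RNA showed a like gap, with 16250 to 18920 CPM in the EU libraries of course 1 and 139.5 to 157.3 CPM in those of course 2. These shares rest on 12087 EU counts of the cluster in course 1 and 288 in course 2. Values of cluster members therefore rest mostly on course 1.

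Of the 439 miRNAs tested, 186 had a larger share in EU than in input libraries (42.4%) and 135 a smaller one (30.8%), by edgeR's quasi-likelihood test on pairs at an adjusted p under 0.05. The difference exceeded 8-fold for 42 of those higher and 21 of those lower. It had the same sign in all 6 pairs for 152 of those higher and 116 of those lower. The miRNAs higher in EU held 28.2% of the input counts and 52.0% of the EU counts, and those lower held 53.8% and 28.4%. All 6 EU shares lay above all 6 input shares for 113 miRNAs and below them for 70. The median log2 difference of all tested miRNAs was 0.26. With TMM scaling, which sets the bulk of miRNAs to no change, that median moved by -0.46, and 125 miRNAs were called higher and 177 lower. Guides within about 0.5 of 0 on the log2 scale can change side under that scaling.

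**Figure D1:**
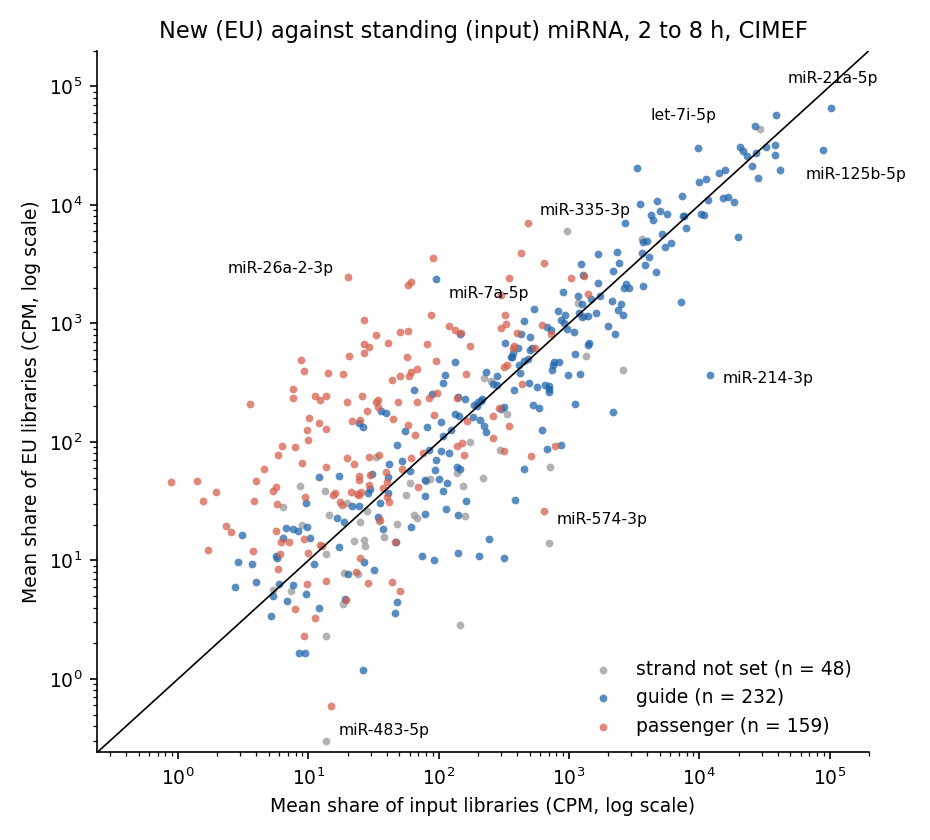
Mean share of each of the 439 tested miRNAs over the 6 EU libraries (vertical axis, CPM, log scale) against its mean share over the 6 input libraries (horizontal axis, CPM, log scale); blue points are guide strands, red points passenger strands, grey points miRNAs whose strand was not set, and the line marks equal shares. Passenger strands such as miR-26a-2-3p lie far above the line, and miR-214-3p and miR-574-3p far below it; miR-483-5p, with 0 EU counts, is drawn at the bottom edge.

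For most miRNAs counted in every library, both courses gave much the same picture. Over the 347 tested miRNAs with a count in all 12 libraries, the mean log2 difference had the same sign in both courses for 298. The course means had a Pearson r of 0.94 and a rho of 0.92 across miRNAs, which are not independent replicates. The means differed by a median of 0.45 on the log2 scale, and by over 1 for 63 of the 347.

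Passenger strands made up most of the top of the list. Of the 15 miRNAs with the largest EU excess by the naming rule, 14 were passenger strands and 1, miR-7a-5p, was a guide. MiR-26a-2-3p is the discarded strand of one of the hairpins that make miR-26a-5p, a growth-restraining miRNA. It stood at 3961, 1391 and 726 CPM in the EU libraries of 2, 4 and 8 h of course 1 and at 5176, 2439 and 1151 CPM in those of course 2. Its input libraries held 8.17 to 34.2 CPM. Every EU library was above every input library, and in both courses the EU share was highest at 2 h. The fitted difference was 117-fold (log2 6.87, SE 0.45, adjusted p = 4.54e-07).

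The discarded strand of the second miR-26a hairpin, miR-26a-1-3p, was 50.2-fold higher in EU libraries (log2 5.65, SE 0.35), and miR-26b-3p was higher by a log2 of 4.47. Their guides miR-26a-5p and miR-26b-5p were higher by only 0.55 and 0.62, and neither was called under TMM scaling. MiR-27a-5p is the passenger of miR-27a-3p, a regulator of fat and muscle differentiation. Its EU libraries ranged from 502 to 5342 CPM with a median of 1978 CPM, and its input libraries from 32.4 to 87.2 CPM with a median of 66.2 CPM. The groups did not overlap, and the fitted difference was 30.5-fold (SE of log2 0.31, adjusted p = 4.18e-07). For miR-27a-3p itself the fitted log2 difference was 0.01 (SE 0.10, adjusted p = 0.959), and it was called lower under TMM scaling at -0.47.

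MiR-16-1-3p, the passenger of the cell-cycle inhibitor miR-16-5p, had a median of 1697 CPM in EU libraries (965 to 3656) and of 59.1 CPM in input libraries (52.8 to 62.3), a 31.5-fold difference without overlap. MiR-130a-5p had the highest mean EU share of the 15, with 1232 to 6666 CPM against 45.5 to 140 CPM in input libraries, and its log2 difference was 5.24 (SE 0.33). Passengers of let-7 were also in this group: let-7c-1-3p, with 498 EU and 99 input counts in all, differed by a log2 of 5.70, and let-7f-1-3p, with 2075 and 878, by 4.51. MiR-92a-1-5p and miR-19b-1-5p, passengers of the proliferation-promoting miR-17-92 cluster, differed by 5.33 and 4.51. MiR-29b-1-5p, whose guide represses collagen messages, differed by 5.11. The other members of the group were miR-30b-3p (5.03), miR-182-3p (4.82), miR-181b-1-3p (4.70) and miR-30d-3p (4.50). MiR-182-3p rests on 137 EU and 37 input counts.

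**Figure D2:**
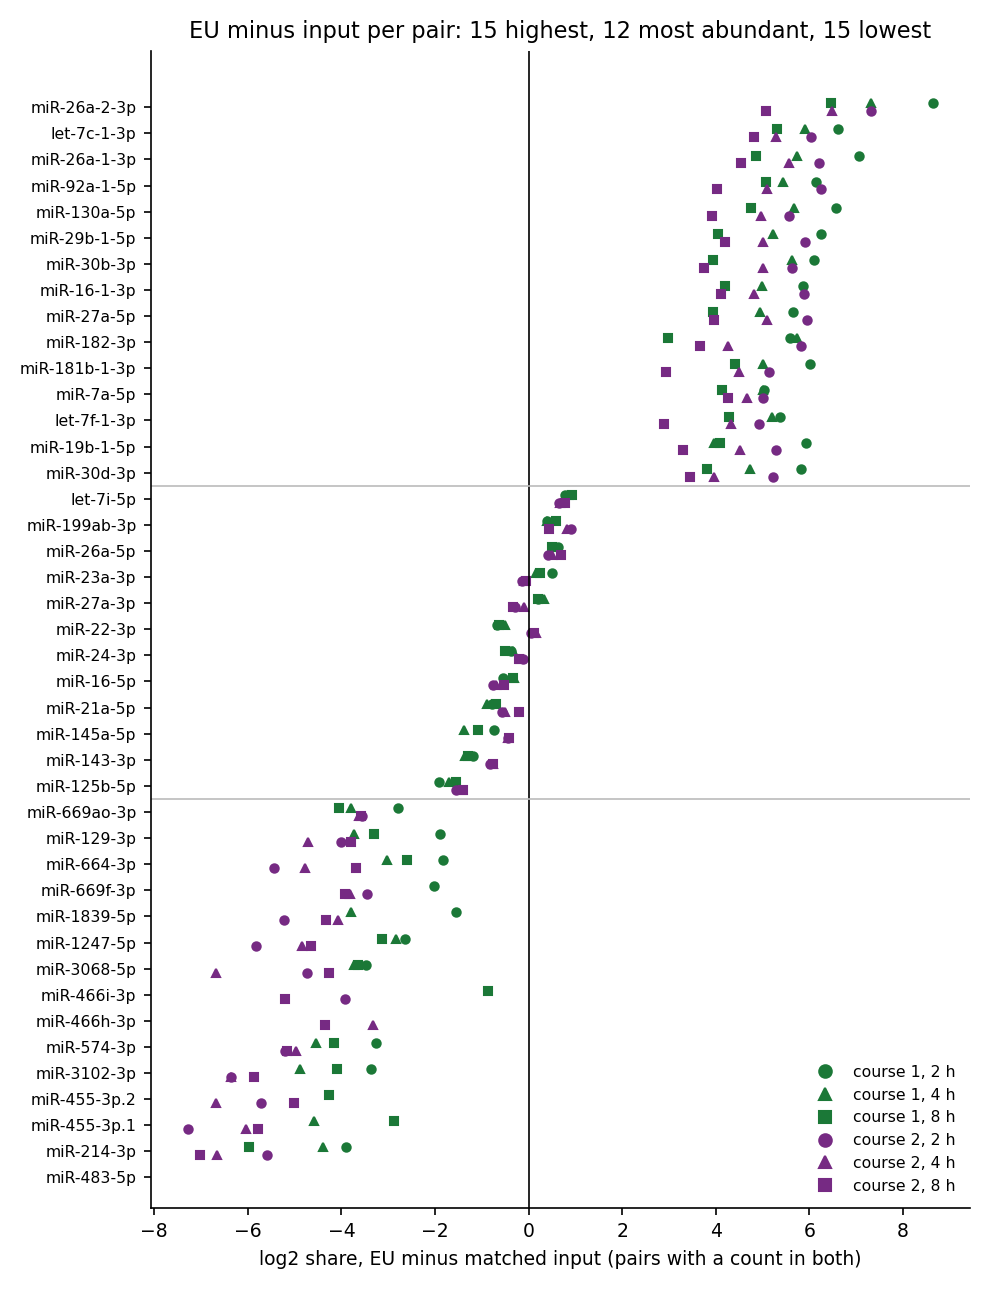
Log2 share of EU minus matched input (horizontal axis) in each pair for the 15 miRNAs with the largest excess in EU (top), the 12 most abundant in input (middle) and the 15 with the largest deficit (bottom); colour marks the course and the symbol the labelling time. In the top block the 2 h points lie to the right of the 8 h points, the middle block lies closer to 0, with miR-125b-5p and miR-143-3p below it in all pairs, and miR-483-5p has no point because it has 0 EU counts.

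Over all hairpins, the 2 strands of a duplex behaved differently. The guide was taken as the strand with more counts in the CIMEF input libraries of the other labelling times, which set strands for 291 hairpins. Those libraries belong to the same 2 courses, so a lower input share than that of the guide is part of the definition of a passenger. Of 159 passenger strands tested, 106 were higher in EU and 22 lower, with a median log2 of 1.56. Of 232 guide strands, 69 were higher and 86 lower, with a median of -0.04. The same over all miRNAs tested was 186 and 135 of 439 with a median of 0.26, and under TMM scaling the passengers counted 87 and 30 and the guides 33 and 115. In the 159 hairpins with both strands tested, the passenger lay above its guide in 124, with a median gap of 1.82 on the log2 scale. Where both strands carried the same hairpin name, this held for 100 of 133, with a median gap of 1.61. Such a name can still stand for more than 1 hairpin, which was not checked.

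Passenger strands together made up 10.6%, 6.63% and 4.96% of the miRNA counts in the EU libraries of 2, 4 and 8 h of course 1, and 10.1%, 6.09% and 3.98% in those of course 2. The input libraries held 1.78% to 1.83% in course 1 and 2.10% to 2.12% in course 2. Every EU library was above every input library, and within each course the share was lower at each later time. The mean was 7.05% ± 2.70 in EU and 1.95% ± 0.170 in input (SD, n = 6 pairs). The paired difference was 5.10 ± 2.72 percentage points, and an exact two-sided permutation test over the signs of the 6 pairs gave p = 0.03125, the smallest that 6 pairs allow. Taking the 2 courses as the units, the smallest p would be 0.5. The widest Wilson 95% interval among these EU libraries was 10.4% to 10.7%, at 2 h of course 1. The EU library of 0 h, which holds what the pulldown carries over without labelled RNA, had 2.39% passenger strands (2.19% to 2.60%), close to the 2.20% of its input library. Outside the 3 times compared, the EU share was 15.8% and 19.0% at 1 h in the 2 courses and 2.28% and 1.84% at 1 week.

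**Figure D3:**
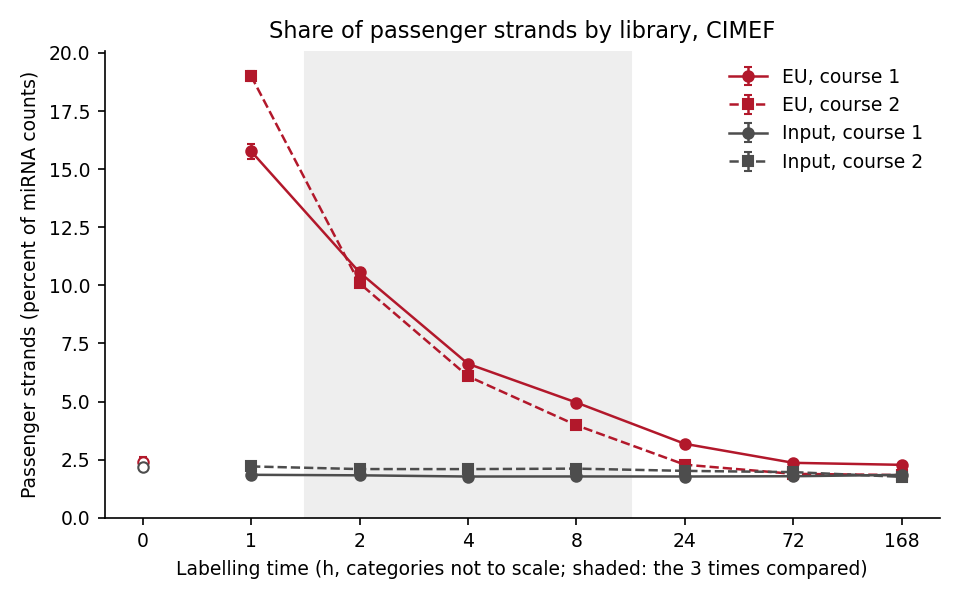
Share of passenger strands in percent of all miRNA counts (vertical axis) by labelling time in hours (horizontal axis, categories) for EU (red) and input (grey) libraries of courses 1 and 2, with Wilson 95% intervals of counting error; open symbols are the 0 h libraries and the shading marks the times compared. The EU share drops from 15.8% and 19.0% at 1 h to 2.28% and 1.84% at 1 week, while the input share stays between 1.76% and 2.21%.

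The 5 hairpins with the most EU counts show the range between duplexes. In miR-26a-2 the passenger made up 7.31% and 8.06% of the hairpin's EU counts at 2 h in courses 1 and 2, and 0.0307% and 0.0742% of its input counts. In miR-26a-1 these were 1.38% and 1.66% in EU and 0.0162% and 0.0308% in input. For miR-21a, the source of the abundant pro-growth miR-21a-5p, they were 0.931% and 0.735% in EU and 0.158% and 0.182% in input. In let-7i the passenger share was 2.47% and 3.81% in EU and 1.17% and 3.44% in input, and in course 2 the EU share was below the input share at 4 h (2.46% and 3.42%) and 8 h (1.42% and 3.77%). In miR-24-2 it was 8.66% and 6.55% in EU and 2.87% and 4.23% in input. The guides miR-26a-5p and miR-24-3p are each made by 2 hairpins, so these percentages count the guide of both. Over the tested hairpins whose strands carried the same name, the median passenger percentage at 2 h was 16.7% and 16.9% in EU and 4.26% and 4.20% in input libraries.

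In 35 of the 159 hairpins the guide was at or above the passenger, and 4 gaps exceeded 3 on the log2 scale: miR-466h (4.02), miR-7a-1 (3.35), miR-218-1 (3.12) and let-7d (3.01). Let-7d-3p was the 1 let-7 passenger lower in EU, with 67.4 to 129 CPM in EU and 430 to 1113 CPM in input libraries (log2 -3.06, adjusted p = 2.74e-06). The miR-322 hairpin went the same way: the guide miR-322-5p was higher by 1.59 and the passenger miR-322-3p differed by 0.05 (adjusted p = 0.872).

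The EU excess of passenger strands shrank with labelling time. The log2 difference between EU and input was fitted against log2 of the hours, so a slope is the change per doubling of labelling time. It fell for 41 of 439 miRNAs (9.34%) and increased for 1 (0.228%). All 41 that fell were passenger strands, which numbered 159 among those tested and had a median slope of -0.58. By edgeR's test 0 of the 232 guides fell (4 at an unadjusted p under 0.05), and their median slope was 0.03. Without the pairing of EU and input libraries 7 slopes fell and 0 increased (2 at an unadjusted p under 0.05), and with course 1 left out 87 fell and 13 increased.

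The steepest falls by the naming rule were miR-148a-5p (-1.39, SE 0.25, adjusted p = 0.0176), miR-23b-5p (-1.23), miR-26b-3p (-1.18), miR-191-3p (-1.17) and miR-26a-2-3p (-1.11, adjusted p = 0.0417, and 0.0739 under TMM scaling). MiR-26b-3p, for example, went from 945 to 364 to 184 CPM in the EU libraries of course 1 and from 1384 to 783 to 395 CPM in those of course 2, while its input libraries held 15.7 to 41.2 CPM. MiR-148a-5p, passenger of a miRNA that targets DNA methyltransferases, went from 137 to 25.7 to 9.19 CPM in course 1, where the last value is 3 counts. All 6 passengers of the miR-30 family were higher in EU and all 6 had falling slopes, against 106 and 41 of all 159 passengers tested. MiR-224-5p, a guide from an intron of a GABA receptor gene, was the 1 miRNA with an increasing slope: its EU share was 145, 569 and 659 CPM at 2, 4 and 8 h of course 1 and 218, 481 and 605 CPM in course 2, against 395 to 433 CPM in input libraries. It was below its input at 2 h and above it at 4 and 8 h in both courses (slope 0.86, SE 0.20, adjusted p = 0.0315, and 0.0876 without the pairing).

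**Figure D4:**
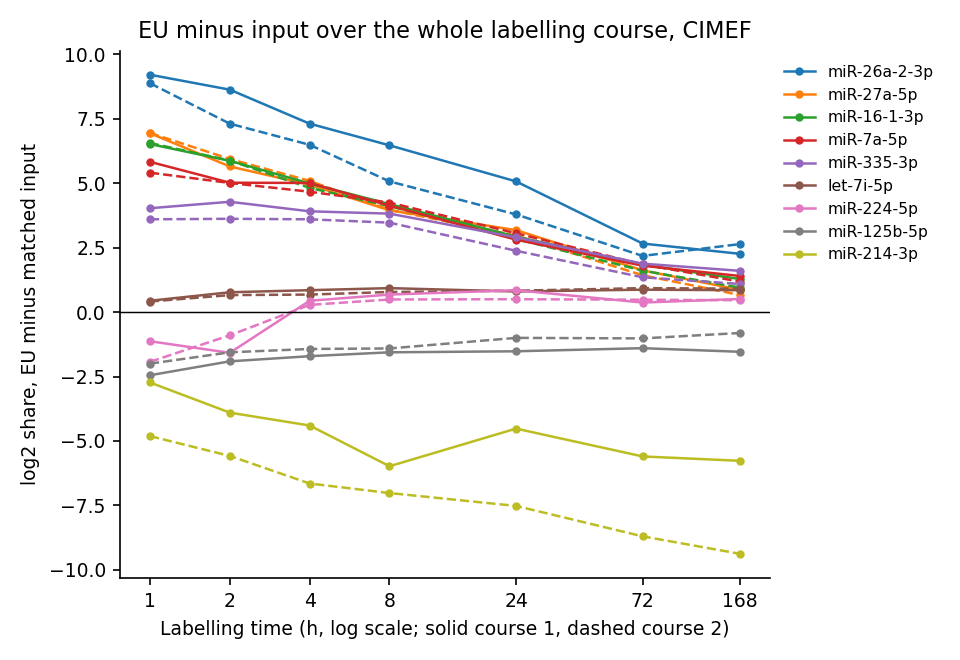
Log2 share of EU minus matched input (vertical axis) against labelling time in hours (horizontal axis, log scale, 1 h to 1 week) for 9 miRNAs; solid lines are course 1 and dashed lines course 2. Passenger strands and miR-7a-5p descend over the whole course, let-7i-5p stays between 0.41 and 0.93, miR-224-5p crosses 0 between 2 and 4 h, and miR-125b-5p and miR-214-3p stay below 0.

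The labelling course ran on to 1 week, where input and EU shares can be set side by side as a description. MiR-26a-2-3p was still higher in EU at 1 week, by a log2 of 2.26 and 2.64 in the 2 courses, after 9.21 and 8.88 at 1 h. MiR-16-1-3p went from 6.52 and 6.56 at 1 h to 1.28 and 0.95 at 1 week. Of the 106 passengers called higher at 2 to 8 h, 97 had counts in all 4 libraries of 1 week, and their median difference was 0.52 there and 2.74 at 2 to 8 h. At 1 week 64 of these 97 were higher in both courses and 9 lower in both. For the 66 guides called higher that had such counts, the median was 0.54 at 1 week and 0.93 at 2 to 8 h. For the 79 guides called lower that had such counts, the median was -0.98 at 1 week and -1.16 at 2 to 8 h, and 69 of them were lower at 1 week in both courses. The median excess of these passengers was thus much smaller at 1 week, though most of them were still higher. The median deficit of the lower guides changed little. Each set was picked by its values at 2 to 8 h.

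Among guides, miR-7a-5p had by far the largest EU excess. MiR-7 is a conserved miRNA of neurons and endocrine cells, and in mice the RNA Cyrano is known to direct its destruction. In EU libraries it held 1979 to 2563 CPM with a median of 2434 CPM, and in input libraries 73.3 to 142 CPM with a median of 78.8 CPM. The groups were far apart, with a 25.7-fold difference (log2 4.68, SE 0.18, adjusted p = 2.73e-08). The partner strand miR-7a-1-3p was higher by 1.33. The slope of miR-7a-5p was -0.41 per doubling of time (adjusted p = 0.0948), and its log2 difference was 1.40 and 1.18 at 1 week. In the 3 knockout pairs, which are from 1 course, miR-7a-5p was higher in EU by a log2 of 0.62 to 0.80, below all 6 wild-type pairs (4.13 to 5.02). That difference was not tested.

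Guides of the X-linked miR-322/503 cluster, which acts on cell-cycle genes and whose member miR-322-5p has the seed of miR-16-5p, were all higher in EU. MiR-503-5p held 9628 to 32658 CPM in EU and 1840 to 4976 CPM in input libraries, with a log2 difference of 2.58 (SE 0.09, adjusted p = 1.35e-08). It has 3 uridines. MiR-322-5p held 17138 to 46739 CPM in EU and 6127 to 12782 CPM in input libraries (log2 1.59, adjusted p = 3.46e-07). Of the 13 cluster members tested, 11 were higher and 1, miR-542-5p, was lower, with a median of 1.40. Of the 11, 5 were passengers. All 6 guides were higher, of which 4 stayed called under TMM scaling. Over all strands tested, 186 of 439 miRNAs, 69 of 232 guides and 106 of 159 passengers were higher.

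The miR-17-92 group, which drives proliferation, is listed here with the related miR-25, miR-92b, miR-93 and miR-106b from other loci. Of its 18 tested members 11 were higher and 2 lower, of which 6 and 2 were passengers. Over all miRNAs tested 42.4% were higher, and so were 106 of 159 passengers and 69 of 232 guides. Its guide miR-25-3p held 7495 to 14231 CPM in EU and 3502 to 6005 CPM in input libraries (log2 1.19, adjusted p = 4.54e-07), and miR-20a-5p 2326 to 4231 CPM and 1012 to 1377 CPM (log2 1.33). Under TMM scaling 4 of its 10 guides were higher and 2 lower, against 5 and 0 by shares. The miR-34 list holds miR-34, whose transcription p53 activates, and the related miR-449. All 5 guides of the list that were tested were higher, led by miR-449c-5p at 2.05. Under TMM scaling 2 stayed called, miR-449c-5p and miR-449a-5p. MiR-34b-5p, at 0.96, was at -0.07 without course 1 (adjusted p = 0.669). The passengers miR-34c-3p and miR-34b-3p were lower, by -1.38 and -0.52.

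Let-7, the family that accumulates as cells differentiate, had 14 of 19 tested members higher and 1 lower, with a median of 0.78, against 42.4% higher over all miRNAs. Of its 9 guides 5 were higher, with a median of 0.33, and this count became 1 higher and 3 lower under TMM scaling. Let-7i-5p was the one with the largest share: 39343 to 52527 CPM in EU and 24553 to 29126 CPM in input libraries, without overlap (log2 0.78, SE 0.06, adjusted p = 2.08e-06). Of its 9 passengers 8 were higher, against 106 of 159 over all passengers tested and 69 of 232 over all guides.

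Of the 12 most abundant miRNAs, 9 differed between EU and input libraries, and log2 differences ran from -1.60 to 0.78. The 12 with the highest input shares made up 48.9% to 55.4% of input and 38.9% to 44.5% of EU counts. MiR-21a-5p, a pro-growth miRNA of fibroblasts, had the highest share: 50426 to 80670 CPM in EU and 69521 to 137598 CPM in input libraries. The ranges overlapped because the courses differ in level, but it was lower in EU in all 6 pairs (log2 -0.60, SE 0.08, adjusted p = 8.67e-05). MiR-125b-5p, a regulator of differentiation and p53 signalling, held 25511 to 32637 CPM in EU and 74781 to 106532 CPM in input libraries, a 3.02-fold lower share without overlap (log2 -1.60, SE 0.08, adjusted p = 1.16e-07).

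Smooth-muscle and fibroblast miR-143-3p and miR-145a-5p, made from 1 transcript, were lower by -1.03 and -0.75, and miR-16-5p and miR-24-3p by -0.53 and -0.29. MiR-26a-5p (0.55), let-7i-5p (0.78) and miR-199ab-3p (0.59) were higher. Of these 3, only let-7i-5p stayed called under TMM scaling, and the other two were at 0.07 and 0.11. MiR-27a-3p (0.01), miR-23a-3p (0.10) and miR-22-3p (-0.25) did not pass the test. MiR-23a-3p was above its input in all 3 pairs of course 1 and below it in all 3 pairs of course 2, with 13320 to 16610 CPM in EU and 11640 to 11890 CPM in input libraries of course 1.

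Several of the miRNAs with the largest deficit in EU are poor in uridine. MiR-483-5p, from an intron of Igf2, has 0 uridines. It had 0 counts in the 6 EU libraries and 414 in the input libraries, where it held 7.03 to 25.0 CPM. Against the floor of 3 counts over the summed EU libraries, its share was at least 12.7-fold lower. MiR-214-3p, a mesenchymal miRNA with 1 uridine, held 76.3 to 1005 CPM in EU libraries with a median of 219 CPM, and 9830 to 14986 CPM in input libraries. It was 47.3-fold lower (log2 -5.56, SE 0.43, adjusted p = 1.60e-06). Its EU share was higher in course 1 (233 to 1005 CPM) than in course 2 (76.3 to 206 CPM). In course 1 the 0 h EU library held 136 counts of miR-214-3p. Scaled by the added RNA standards, that stands for 202, 185 and 128 counts at 2, 4 and 8 h, where 132, 136 and 76 were found. The EU counts of miR-214-3p in course 1 did not exceed that background.

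MiR-574-3p has 2 uridines and held 17.1 to 38.1 CPM in EU and 363 to 955 CPM in input libraries (log2 -4.71, SE 0.27, adjusted p = 3.45e-07). In course 1 it had 5, 4 and 7 EU counts at 2, 4 and 8 h, of which the scaled 0 h background stands for 89.3%, 102% and 40.2%. MiR-3102-3p has 3 and was lower by -5.28, with 21 EU counts in all. The 2 forms of miR-455-3p, a cartilage-associated miRNA, were lower by -5.56 and -5.51, on 43 and 11 EU counts. MiR-466i-3p had 4 EU and 646 input counts, and its value lost its call when course 2 was left out (adjusted p = 0.114). MiR-466h-3p had 2 EU and 375 input counts, a ratio of 17.2 between input and EU with an exact 95% interval of 4.73 to 143, and it also lost its call without course 2 (adjusted p = 0.0572).

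Others have more uridines. MiR-3068-5p and miR-664-3p, with 8 each, were lower by -4.36 and -3.77. MiR-3068-5p held 2.35 to 15.3 CPM in EU and 170 to 239 CPM in input libraries, and the groups did not overlap. MiR-1839-5p, with 5, and miR-1247-5p, with 4, were lower by -4.12 and -4.19. The other 3 of the 15 were miR-669f-3p (-3.81), miR-129-3p (-3.66) and miR-669ao-3p (-3.58), which was the most precisely measured of them (SE 0.19, on 177 EU counts).

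A uridine count could be given to the 355 tested miRNAs that matched a RefSeq mature sequence. The median log2 difference was -1.93 for 25 miRNAs with 0 to 3 uridines, -0.12 for 94 with 4 or 5, 0.35 for 122 with 6 or 7, 0.78 for 86 with 8 or 9 and 1.90 for 28 with 10 to 12. Among guides the same medians went from -2.80 to 0.80, and among passengers from -1.06 to 3.10, so that passengers lay above guides in each class. Guides and passengers had the same median of 6 uridines. Across the 355 miRNAs, which share libraries, the number of uridines and the log2 difference had a Pearson r of 0.41 and a rho of 0.36. For adenosines r was -0.19, for cytidines -0.20, for guanosines -0.01 and for length -0.01. For the level in input libraries of the other labelling times r was -0.35 and rho -0.38. That r was -0.10 among guides and -0.39 among passengers. Cytidines had an r of -0.37 among guides and -0.32 among passengers, and uridines 0.42 and 0.43. At 1 week the medians of the same 5 uridine classes were -2.19, -0.40, -0.02, 0.53 and 1.19, and uridines had an r of 0.59 over 319 miRNAs.

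**Figure D5:**
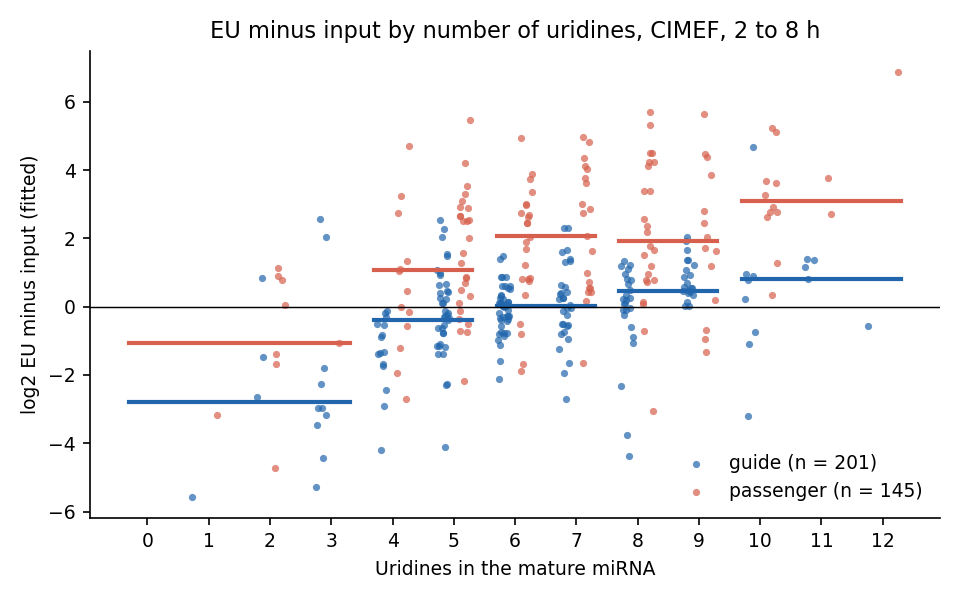
Fitted log2 difference of EU minus input (vertical axis) against the number of uridines in the mature miRNA (horizontal axis) for 201 guides (blue) and 145 passengers (red), with points spread sideways for visibility; thick lines are medians of the classes 0 to 3, 4 and 5, 6 and 7, 8 and 9, and 10 to 12 uridines. Medians of guides are higher in each class with more uridines, those of passengers are lowest at 0 to 3 and highest at 10 to 12 but slightly lower at 8 and 9 than at 6 and 7, and those of passengers lie above those of guides in each class.

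The miR-335 hairpin shows both features in 1 duplex. MiR-335-3p has 11 uridines and miR-335-5p, the more abundant strand in standing RNA, has 4. The 3p strand held 3472 to 11516 CPM in EU and 304 to 731 CPM in input libraries (13.8-fold higher, log2 3.78, SE 0.13, adjusted p = 1.35e-08). The 5p strand held 928 to 2120 CPM in EU and 1269 to 2983 CPM in input libraries (log2 -0.50). The share of the 3p strand was above that of the 5p strand in every EU library and below it in every input library. Its slope of -0.15 per doubling of time did not pass the test (adjusted p = 0.711), unlike the falling slopes of the 41 passengers above.

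Among the other families, miR-99/100/125, which is often transcribed with let-7, had 1 guide higher (0 under TMM scaling) and 4 lower of 5, with miR-99b-5p at -2.27, miR-125a-5p at -1.95 and miR-125b-5p at -1.60, and all 6 of its passengers were higher. MiR-99b-5p held 1143 to 1781 CPM in EU and 6574 to 8275 CPM in input libraries. For miR-15/16, 2 guides were higher and 2 lower of 5 (0 and 3 under TMM scaling), and 6 of 6 passengers were higher. The miR-130/301 and miR-148/152 list had 4 of 7 guides lower (7 of 7 under TMM scaling), led by miR-130b-3p at -2.92, and 5 of 6 passengers were higher. In the miR-23/24/27 list 5 of 6 passengers were higher and 3 of 5 guides lower (5 of 5 under TMM scaling). Over all strands tested, 106 of 159 passengers were higher and 86 of 232 guides lower (115 under TMM scaling).

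Mirtrons and miRNAs from capped precursors bypass Drosha, the enzyme that cuts most hairpins from their transcripts. Of 5 tested, 4 were lower, with miR-877-5p at -2.64, miR-1981-3p at -1.87 and miR-320-3p at -0.35. Over all miRNAs tested 30.8% were lower. Without course 2 all 4 lost their call by edgeR: miR-877-5p was at -1.26 (adjusted p = 0.266), miR-1981-5p at -0.59 (0.253), miR-1981-3p at -2.43 (0.0775) and miR-320-3p at -0.14 (0.399). The Sfmbt2 list gathers by name a repeated rodent family known from an intron. Its member miR-466i-3p lies on chromosome 13, so the list is not a single locus. Of the 30 listed members tested, 19 were lower and 2 higher, with a median of -0.91 (25 and 0 under TMM scaling). Many members of this list are near-identical, so reads may be split between them. Of 62 Dlk1-Dio3 members tested, 20 were higher and 11 lower with a median of 0.24, which became 11 and 16 under TMM scaling. MiR-154-3p led the cluster at 3.78 (adjusted p = 0.061 without the pairing), with 1437 to 1965 CPM in EU and 103 to 129 CPM in input libraries of course 1, and 10.7 to 33.8 CPM and 1.12 to 2.34 CPM in course 2. Of the marker lists, the neural one had 3 of 6 tested members higher, against 42.4% over all miRNAs, among them miR-9-5p at 1.37 (adjusted p = 0.0971 without the pairing), and the blood list 1 of 1 lower, miR-451a at -2.30, whose call was lost without course 2 (adjusted p = 0.284). Whether other cells contributed to these values was not tested.

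The pulldown had a measurable background. The 0 h EU library of course 1 held 21334 miRNA counts. Scaled by the added standards, it stands for 24.2%, 12.4% and 6.13% of the counts in the EU libraries of 2, 4 and 8 h of that course. For miR-26a-2-3p it stands for 0.858% to 1.26% of the EU counts, for miR-7a-5p for 0.346% to 1.43%, for miR-21a-5p for 9.80% to 38.9% and for miR-125b-5p for 10.1% to 45.8%. In a fit of course 1 alone with these counts subtracted, 187 miRNAs were higher and 105 lower. Course 2 took no part in that fit, so these are not background-corrected counts for both courses.

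The log2 difference of EU minus input, with its sign, was tested between the courses. It was higher in course 1 for 42 miRNAs (9.57%) and lower for 11 (2.51%). Of these, 31 and 11 were guides, against 232 guides among the 439 tested. A higher value can also be a smaller deficit. MiR-3102-3p and miR-1247-5p were lower in EU in all 6 pairs, and their values were higher in course 1 by 2.01 and 2.13. No miRNA was called when the 4 h pairs were left out, although 44 and 12 then had an unadjusted p under 0.05. MiR-199b-5p, a mesenchymal miRNA, showed the most reliable difference. In course 1 it held 8854 to 10250 CPM in EU and 535 to 580 CPM in input libraries, and in course 2 2048 to 2951 CPM and 1275 to 1513 CPM. Its EU excess was larger in course 1 by a log2 of 3.16 (SE 0.21, adjusted p = 8.03e-05).

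MiR-34b-5p, a p53-regulated guide, held 2315 to 2957 CPM in EU and 606 to 676 CPM in input libraries of course 1, and 940 to 1219 and 1020 to 1273 CPM in course 2, a difference of 2.07 (SE 0.18). MiR-221-3p, which targets the cell-cycle inhibitor p27, differed by 1.22 in the same direction. MiR-29b-3p and miR-22-3p differed by -0.92 and -0.72: both were below their inputs in all 3 pairs of course 1 and above them in all 3 pairs of course 2. The input shares of all 5 differed between the courses without overlap, and in each case the course with the lower input share had the larger EU value relative to its input.

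Against dividing fibroblasts, the signed log2 difference was higher in CIMEF for 62 of 564 miRNAs (11.0%) and lower for 30 (5.32%). Passengers made up 31 of the 62 and 4 of the 30, against 199 of the 564 tested. Under TMM scaling the counts were 36 and 45, without replicate 1 of both lines 14 and 24, without the 4 h pairs 11 and 7, and without the 8 h pairs 46 and 17. MiR-7a-5p differed most reliably, with 4.13 to 5.02 in the 6 CIMEF pairs and 2.18 to 3.65 in the 6 DMEF pairs (difference 1.87, SE 0.23, adjusted p = 1.34e-05). MiR-21a-5p was lower in EU in all 6 CIMEF pairs and higher in all 6 DMEF pairs (0.14 to 0.49), a difference of -0.89 (SE 0.11). MiR-183-5p and miR-96-5p, made with miR-182 from 1 transcript known from sensory cells, differed by -1.21 and -0.98. MiR-467a-5p of the Sfmbt2 list differed by -1.37 (adjusted p = 0.072 by edgeR without the pairing).

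Against stem cells, the signed log2 difference was higher in CIMEF for 113 miRNAs (20.0%) and lower for 42 (7.45%). Passengers numbered 55 and 6 among them, against 199 of the 564 tested. Under TMM scaling the counts were 160 and 24. Without replicate 1 of all 3 lines fitted the counts were 53 and 30, without replicate 2 73 and 23, without the 4 h pairs 52 and 20, and without the 8 h pairs 85 and 21. MiR-7a-5p differed by 3.85 (SE 0.24, adjusted p = 9.86e-12), and its 6 ESC pairs lay between 0.28 and 1.22. MiR-335-3p differed by 3.00, with 3.47 to 4.28 in CIMEF and 0.47 to 1.04 in ESC pairs. The Dlk1-Dio3 members miR-154-3p and miR-376b-3p differed by 3.81 and 3.28, and miR-376b-3p was lower in EU in all 6 ESC pairs. MiR-96-5p went the other way, with -1.80: it was lower in EU in all 6 CIMEF pairs and higher in all 6 ESC pairs (0.44 to 0.97). The ESC EU libraries of 2 to 8 h were also shallower. They held 11392 to 105158 miRNA counts, so that 3 counts stand for 28.5 to 263 CPM. Dose, depth and cell line changed together in this comparison and cannot be told apart.

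The knockout course repeated most differences in libraries that took no part in the test. Of the 186 miRNAs higher in EU, 162 were higher in all 3 knockout pairs, against 204 of all 439 tested, and 4 were lower in all 3. Of the 135 lower in EU, 121 were lower in all 3, against 148 of all tested, and 0 were higher in all 3. MiR-26a-2-3p was higher there by 3.92 to 5.43 and miR-27a-5p by 4.29 to 6.08, and miR-214-3p was lower by -6.83 to -6.08. Passenger strands made up 9.84%, 6.48% and 4.34% of the EU counts at 2, 4 and 8 h, and 2.21% to 2.33% of the input counts.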

How the data were processed

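Small RNA was sequenced from 12 CIMEF libraries (6 EU, 6 input) as single reads on an Illumina HiSeq, per the labels' protocols. The values are the raw read counts per mature miRNA that the authors deposited, with no normalization. Adapters were removed with cutadapt, and STAR 2.4, HTSeq 0.9.1 and the genome mm10/GRCm38 are named, per the submitters' processing notes; how reads of near-identical miRNAs were assigned is not given in the sources used here, nor whether the random adapter bases were used to remove duplicates. Groups, courses and times come from the sample titles. The members, lists and tests were chosen with earlier results of these data known.

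Counts were tested with edgeR 4.0.16 in R 4.3.3 (quasi-likelihood, two-sided, Benjamini-Hochberg over all miRNAs tested) with the miRNA total as library size and no further scaling, after edgeR's expression filter with a minimum count of 10. The course and time were kept as a block, since an EU library and its input come from the same cells. Times of a course stand in for replicates. The slope, the difference between courses and that between lines were interaction terms, the latter over 564 miRNAs in 3 lines. In 1 course of DMEF the deposited EU columns may hold either or both of 2 sequencing runs. Strands were set in hairpins with at least 100 counts in the 2 arms. The scripts were tested on simulated counts with known differences.

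Named miRNAs are the 15 largest and the 15 smallest log2 differences among those called, with the same sign in all 6 pairs and at least 100 counts; the 12 most abundant in input; the 5 steepest slopes each way; the 5 lowest p in each interaction; the 5 hairpins with the most EU counts; and list members with the lowest p. Members such as miR-335-5p, miR-322-3p, miR-26b-5p and the hairpins with the guide above the passenger were named after their values were seen. Mature sequences of 831 of the 1013 miRNAs were matched by name in RefSeq. Alternatives were TMM scaling, DESeq2 1.42.0, other filters, no block, counts summed per course, each course or time left out, the 1 h pairs added, and the 0 h EU counts subtracted. This last was run for course 1, the course with a 0 h library, scaled by 2 added standards.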

Additional observations from a re-analysis of the deposited data

Results flagged for a closer look

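Differences of the EU value between courses or lines are given here because the test of the difference itself passed, for the 5 miRNAs with the lowest p of each comparison. No explanation of them was tested.

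Between the courses (course 1 minus course 2, log2), miR-199b-5p differed by 3.16, miR-34b-5p by 2.07 and miR-221-3p by 1.22, and miR-29b-3p and miR-22-3p by -0.92 and -0.72. All 5 lost their call without the 4 h pairs, with adjusted p between 0.0961 and 0.124 by edgeR and values from -0.88 to 3.22.

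Between contact-inhibited and dividing fibroblasts (CIMEF minus DMEF), miR-7a-5p differed by 1.87, miR-21a-5p by -0.89, miR-183-5p by -1.21, miR-96-5p by -0.98 and miR-467a-5p by -1.37. MiR-21a-5p is the one whose pairs all lie below 0 in one line and all above 0 in the other.

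Between contact-inhibited fibroblasts and stem cells (CIMEF minus ESC), miR-7a-5p differed by 3.85, miR-154-3p by 3.81, miR-376b-3p by 3.28, miR-335-3p by 3.00 and miR-96-5p by -1.80. MiR-376b-3p lost its call without the pairing (3.41, adjusted p = 0.0913 by edgeR). The input share of the Dlk1-Dio3 cluster, to which miR-154-3p and miR-376b-3p belong, was 61890 to 65520 CPM in stem cells, 5866 to 8664 CPM in dividing fibroblasts and 450 to 482 CPM in the knockout course, and differed between the CIMEF courses as given above.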

How the results depend on the processing

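Counts of miRNAs higher and lower in EU stayed within 1.5 times of 186 and 135 under each alternative run: 125 to 215 higher and 99 to 178 lower. TMM and DESeq2 moved the median by -0.46 and -0.45 and the share of higher calls from 57.9% to 41.4% and 42.8%. Against labelling time, 2 slopes increased with no filter, 23 with 1 h added and 12 with 0 h counts subtracted, and 75 and 63 fell in these last cases; leaving out a course gave 1 to 13 increasing and 41 to 87 falling. The course difference gave 7 lower with TMM, and 0 and 0 without 4 h (44 and 12 at an unadjusted p under 0.05). For CIMEF minus DMEF, counts were 36 higher with TMM, 11 and 7 without 4 h, 17 lower without 8 h and 38 and 19 with counts summed per course; leaving out a replicate gave 14 to 53 higher. For CIMEF minus ESC, they were 24 lower with TMM, 52 and 20 without 4 h and 21 lower without 8 h; leaving out a replicate gave 53 to 73 higher and 23 to 30 lower. The cause of these moves was not tested.

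Without the replicate block, that is without the pairing, 142 miRNAs were higher and 99 lower; slopes gave 0 increasing and 7 falling, the course difference 19 lower, CIMEF minus DMEF 11 and 8, and CIMEF minus ESC 67 and 26. Among the 42 miRNAs named for size or abundance, miR-24-3p was then no longer called (-0.26) and miR-27a-3p changed sign (-0.06). Of others named, miR-154-3p (adjusted p = 0.061 by edgeR), miR-376b-3p (0.227), miR-221-3p (0.0508), miR-9-5p (0.0971) and miR-320-3p (0.213) were not called either.

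The passenger difference was 6.71 percentage points with 0 h counts subtracted (course 1), 4.62 to 5.59 with a course left out, and 3.47, 5.44 and 6.39 without 2, 4 and 8 h; fewer pairs cannot reach an exact p under 0.05. With strands set by DMEF inputs it was 4.97.

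Among those 42, 3 miRNAs near 0 changed sign. MiR-27a-3p was -0.47 with TMM, -0.44 with DESeq2, -0.05 without 4 h, -0.11 with 1 h added and -0.00 with counts summed per course, and -0.23 to 0.25 with a course left out. MiR-23a-3p was -0.38 with TMM and -0.34 with DESeq2, and -0.10 to 0.31 with a course left out. MiR-22-3p was -0.61 to 0.11 with a course left out. Of others named, miR-29b-3p (-0.10), miR-34b-5p (0.96) and miR-322-3p (0.05) were at 0.36, -0.07 and -0.53 without course 1, and miR-224-5p (-0.03) at 0.11 without the pairing. Of the 42, 36 to 42 kept direction and call under each alternative. Subtraction of 0 h counts in course 2 was not run.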
